A study of Homo sapiens with 11 samples.

Results

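LMNA is the gene of lamins A and C, and the windows described here are the stretches of its RNA that were enriched with the ribosomal protein RPS19. The study used enhanced crosslinking and immunoprecipitation (eCLIP), in which ultraviolet light fixes a protein to the RNA it touches and the RNA that comes down with the protein is sequenced. Windows were selected on the gene name in the authors' 3 lists of enriched windows, 1 list per form of RPS19. There were 33 LMNA windows of 86567 listed with the substitution R62W, 4 of 93331 with the substitution R101H and 108 of 15402 with the wild-type protein (WT). Over the 3 lists these were 113 distinct LMNA windows of 122708 in all. A window entered a list by its own enrichment over input, and LMNA was picked because its numbers of windows differ so much between the lists. The counts and enrichment values below are therefore a description of the chosen gene, with no test.

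The IP samples were HEK293T cells, a human embryonic kidney line, transfected with a plasmid that overexpressed V5-tagged RPS19 and precipitated with a V5 antibody. There were 3 replicates of OE RPS19 R62W, 2 of OE RPS19 R101H and 3 of OE RPS19 WT. The title of the series ties the variants to Diamond-Blackfan anemia. The 3 size-matched inputs had the genotype control and came from cells that received no plasmid, so IP and input cells differed by the transfection as well as by the precipitation. The cells' own RPS19 was not described as removed in any group. All samples were crosslinked. The labels do not state whether replicates were grown as separate cultures, and a replicate range may be technical. The tables hold enriched windows only, so the cell line was not checked against marker genes.

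Lamins A and C are made from LMNA by alternative splicing and polymerise into the nuclear lamina, the filament mesh that lines the inner nuclear membrane. RPS19 is a protein of the small ribosomal subunit. It is assembled into pre-40S particles in the nucleolus and has its place in translating ribosomes in the cytoplasm. Introns are removed in the nucleus before an mRNA is exported, so reads from an intron come from unspliced or excised RNA rather than from mature mRNA.

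LMNA (ENSG00000160789.24) lies on the plus strand of chromosome 1. RefSeq places it at 156082573 to 156140081 of GRCh38. The listed windows ran from 156114849 to 156139788, and none was listed in the 32276 bases of the RefSeq gene upstream of the first one. Every listed window named LMNA alone. Most LMNA windows lay in introns with R62W and WT, and only 1 did with R101H. Intronic windows, those beside splice sites included, were 29 of 33 with R62W (87.9%, exact Clopper-Pearson 95% interval 71.8 to 96.6), 1 of 4 with R101H (25%, 0.631 to 80.6) and all but 7 of 108 with WT (93.5%, 87.1 to 97.4). Over the whole lists the intronic share was 13.5% with R62W, 10.7% with R101H and 31.4% with WT. These intervals cover counting error only, and neighbouring windows can hold the same RNA fragments. For R101H, "intron windows" therefore fits 1 of the 4 members.

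Nearly all of the intronic windows fell in a single intron, the one that follows the exon with the start codon. It spans 156115275 to 156130616, or 15.3 kb, and the files tile it in 154 windows of 99 or 100 bases. Of these tiles, 28 were listed with R62W (18.2%), 1 with R101H (0.649%) and 99 with WT (64.3%). This intron held 84.8% of the LMNA windows of R62W and 91.7% of those of WT. In WT the listed tiles were spread along its whole length. Split into 3 equal stretches of 5.11 kb from the 5′ end, the intron held 13, 6 and 9 listed tiles with R62W and 36, 31 and 32 with WT. The longest unbroken run was 2 tiles with R62W and 10 tiles with WT. The WT run began at the 5′ splice site and covered the first 0.996 kb. A tile that is not listed has no value in the files, and 53 of the 154 tiles were in no list. By the number of listed windows away from splice sites, the intron came 12th of 1614 introns with R62W, with 1 other at the same number, and 3rd of 729 with WT. With R101H it had 1 such window, as did 880 of the 1434 listed introns, itself included. The median over introns was 1 window in all 3 lists. Outside it, R62W had 1 listed intron window and WT had 2, at 156132539 to 156132636 with a mean of 3.33 and at 156134203 to 156134302 with 3.21.

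**Figure D1:**
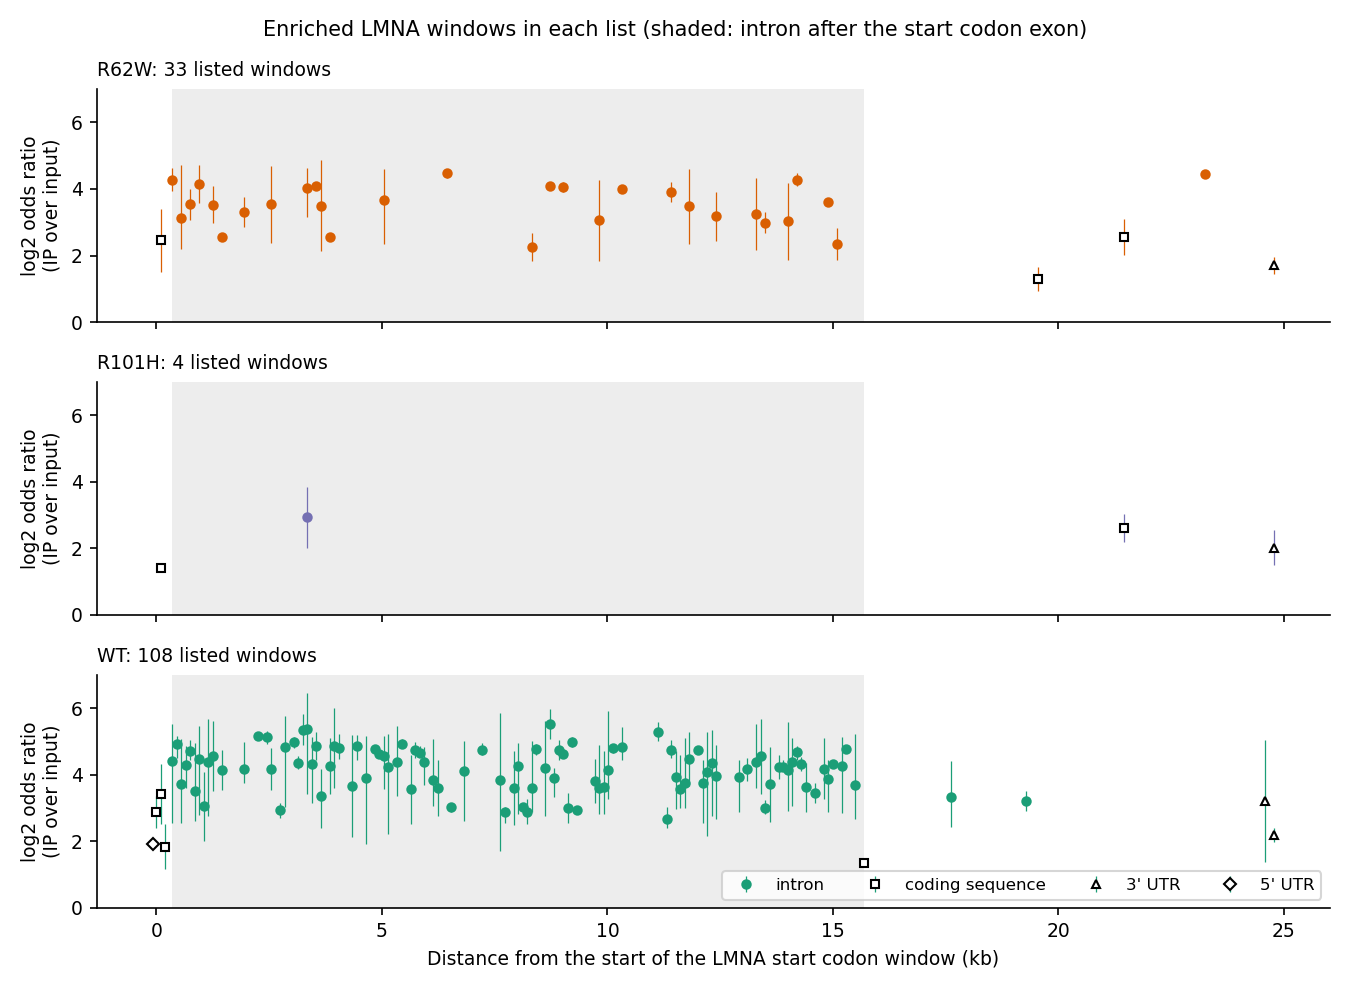
Mean log2 odds ratio of IP over input for each listed LMNA window against the distance in kb from the start of the start codon window, with 1 panel each for R62W, R101H and WT. Vertical lines span the passing replicates, and grey marks the 15.3 kb intron. WT has 99 windows across the grey area, R62W has 28 and R101H has 1.

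The intron windows rested on few input reads. By the values, the authors' IP and input counts are summed over the replicates in which a window passed. An input of 0 is therefore 0 in those replicates. In the intron IP counts were 14 to 39 per window with R62W (median 17.5), 14 in the single R101H window and 19 to 92 with WT (median 44). Pooled input counts were 0 to 4 in the windows of R62W, 2 in that of R101H and 0 to 5 in those of WT. With R62W 24 of the 28 windows passed in only 2 of the 3 replicates, against 38 of the 99 with WT. The counts of these groups thus sum unequal numbers of libraries, and that of R101H sums 2. IP counts in WT windows were mostly above the highest of R62W. Input was 0 in 10 of 28 windows with R62W (35.7%) and in 30 of 99 with WT (30.3%). Among all listed intronic windows it was 0 in 4.85% with R62W and 9.98% with WT. Over the whole lists, the lowest pooled IP count of an intronic window with input 0 was 14 with R62W, 14 with R101H and 19 with WT. Of these windows with input 0, 520 of 566 with R62W and 424 of 483 with WT passed in 2 replicates only. An input near 0 fixes the size of a ratio poorly, and no library totals are given in the tables.

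**Figure D2:**
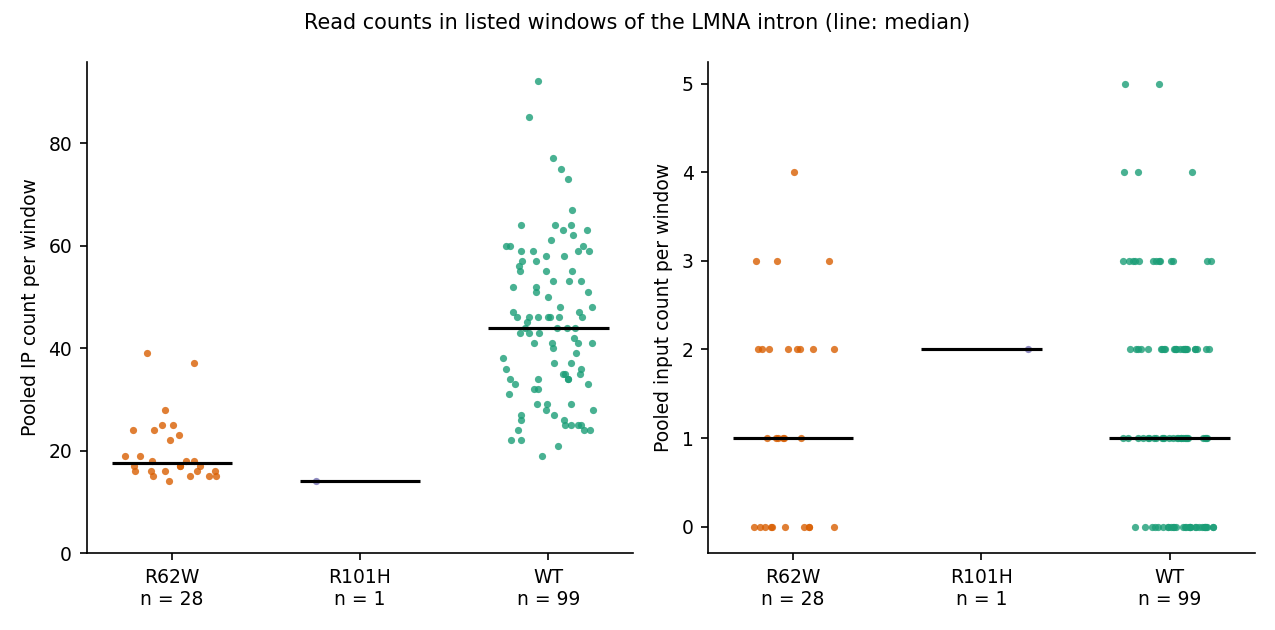
Pooled IP count (left) and pooled input count (right) of each listed window of the LMNA intron, for R62W, R101H and WT, with the median as a line. IP counts, summed over the 2 or 3 passing replicates of a window, have medians of 17.5, 14 and 44, while input counts are between 0 and 5 in all 3 lists.

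Enrichment is the authors' log2 odds ratio of IP over input, averaged over the replicates in which a window passed. Over the intron it ranged from 2.27 to 4.46 with R62W (median 3.53 over 28 windows), was 2.93 in the R101H window, and ranged from 2.66 to 5.52 with WT (median 4.24 over 99). The median standard deviation between passing replicates of a window was 0.64 with R62W and 0.83 with WT. Intronic windows of the whole lists had medians of 2.30 with R62W, 2.31 with R101H and 2.79 with WT. Windows with input 0 had higher ratios than those with input reads. Their medians in the LMNA intron were 4.07 against 3.21 with R62W and 4.77 against 3.94 with WT. The median share of G and C bases of the listed intron windows was 53.0% with R62W and 53.5% with WT, and that of all listed intronic windows was 53.0% and 54.0%.

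A window needed to pass in at least 2 replicates to be listed. In the intron, 4 of 28 windows passed in all 3 replicates with R62W (14.3%) and 61 of 99 with WT (61.6%). Over the whole lists 44.5% of R62W windows and 22.8% of WT windows passed in all 3, and over their intronic windows alone 30.0% and 26.4% did. Every R101H window passed in both replicates, as its list requires. The highest q over the passing replicates was at most 0.05 for 8 of 33 LMNA windows with R62W, 0 of 4 with R101H and 49 of 108 with WT. Over the whole lists 26.1% of windows with R62W, 46.2% with R101H and 19.4% with WT met that limit, so the LMNA share with R62W (24.2%) was near that of its list. Over the intronic windows of the lists alone, 17.5% with R62W, 29.2% with R101H and 17.6% with WT met it. The lists stop at a q of 0.2, and the LMNA windows closest to that limit had 0.197 with R62W, 0.169 with R101H and 0.191 with WT.

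The intron windows with the highest WT values were mostly without input reads and mostly absent from the other lists. The highest lay at 156123643 to 156123741. Its 2 passing replicates had 4.05 and 4.10 with R62W, against 5.06 and 5.98 with WT. Both R62W replicates lay below both WT replicates. It held 16 IP reads with R62W and 53 with WT, and no input read in either list.

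The next window in rank, at 156118264 to 156118363, was the only intron window in all 3 lists. Its replicates had 3.16, 4.26 and 4.63 with R62W, 2.02 and 3.84 with R101H, and 3.43, 6.19 and 6.46 with WT. The replicate ranges overlapped between all 3 groups, since the lowest WT replicate fell among those of the substitutions. It held 37 IP reads with R62W, 14 with R101H and 92 with WT, from 3, 2 and 3 libraries, with 2 input reads in each list. The tile just upstream of it, at 156118165 to 156118263, was listed in WT alone, with 4.88 and 5.82 and 36 IP reads.

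The other 7 of the 10 highest WT windows were also listed in WT alone, at means of 4.91 to 5.29. They included 156126033 to 156126132, with 5.01 and 5.57 and 40 IP reads. A pair lay close together at 156117169 to 156117267, with 5.11 and 5.18, and at 156117368 to 156117467, with 4.91 and 5.32, each with 35 IP reads. Of the 7, the window beside the 5′ splice site at 156115375 to 156115474 passed in all 3 replicates, with 4.49, 5.07 and 5.17. All 7 had 0 input reads.

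Most WT windows of LMNA were not in the other lists. R62W listed 28 of the 108 WT windows (25.9%, exact 95% interval 18.0 to 35.2) and R101H listed 3 (2.78%, 0.577 to 7.90). Of all 15402 WT windows, 79.6% were also listed with R62W and 72% with R101H. Of the 4838 intronic WT windows these shares were 48.7% and 33.7%, against 26 (25.7%) and 1 (0.990%) of the intronic LMNA windows. LMNA was chosen for this contrast, so nothing is read from the gap. Of the 113 distinct windows, 80 were in the WT list alone, 25 in those of R62W and WT, 3 in all 3 lists, 1 in those of R62W and R101H, and 4 in that of R62W alone.

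The 4 windows listed with R62W alone, named here after their values were seen, were spread over the gene. One lay inside the long intron at 156121352 to 156121451, with a mean of 4.46. One was the last tile before the 3′ splice site windows of the same intron, at 156130017 to 156130116, with 2.35. Another, at 156138158 to 156138243, lay in an intron further downstream and had 4.46, with 20 IP reads and no input read. The only coding one, at 156134466 to 156134528, had 1.29.

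Within the intron, the WT windows that R62W also listed had higher summed WT IP counts than those it did not. Their median WT IP count was 52.5 over 26 windows, against 41 over 73 windows that R62W did not list. Of the 26, 22 (84.6%) passed in all 3 WT replicates, against 39 of the 73 (53.4%). Their median WT log2 odds ratio was 4.40, against 4.23 for the windows that R62W did not list. The IP counts are sums over passing replicates. The median counts are thus not per library, nor separate from the shares that passed in all 3.

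Where R62W and WT both listed an LMNA window, values were lower with R62W in all but 1. Over the 28 shared windows the median log2 odds ratio was 3.51 with R62W and 4.32 with WT, and the median difference, R62W minus WT, was -0.84 (range -1.68 to 0.13). It was lower with R62W in 27 of the 28 windows. Of all 12263 windows shared by these lists 27.6% were lower with R62W, as were 57.7% of the 2358 shared intronic ones. The median difference was 0.26 over all shared windows and -0.09 over shared intronic ones. The exception was the window at 156118563 to 156118662, with 2.12 and 4.87 with R62W and a range of 2.39 to 4.18 with WT.

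The replicates of most of these windows overlapped. In 11 of the 28 every passing R62W replicate lay below every passing WT replicate, which was so for 4.24% of all shared windows and 10.8% of shared intronic ones. In the other 17 the ranges overlapped, and in none did R62W lie wholly above WT. Replicates that did not pass are left out of these ranges, and of the 28 windows 4 passed in all 3 replicates with R62W and 22 with WT. Because the contrast was used to choose LMNA, these counts carry no test.

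Summed IP counts were also lower with R62W, but they cover passing replicates only. More of the 28 windows passed in every replicate with WT than with R62W, so the sums cover unequal numbers of libraries. The 28 windows held 604 IP reads with R62W and 1537 with WT, and the count was lower with R62W in 28 of 28. That includes the windows in which equal numbers of replicates passed in both lists. The median ratio of R62W to WT IP counts was 0.356, between 0.195 and 0.75, whereas over all 12263 shared windows it was 1.62 and over the shared intronic ones 1.00. None of these ratios is per library. Over the whole lists a larger share of windows passed in every replicate with R62W than with WT, the reverse of LMNA. How much of the gap between the ratios comes from the numbers of passing replicates was not tested. The summed input counts of the 28 windows were 44 in the R62W table and 54 in the WT table, and 17 of the 28 had the same input count in both. Input sums also cover passing replicates only, so they can differ where the passing replicates differ.

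Exonic LMNA windows were few in every list, with 4 with R62W, 3 with R101H and 7 with WT. Their median log2 odds ratios were 2.08, 2.02 and 2.19, below those of the intron windows of the same list. None of the exonic windows passed in all 3 replicates with R62W or WT. Their pooled input counts were 3 to 19 with R62W, 3 to 9 with R101H and 5 to 25 with WT, so these ratios rest on more input reads than those in the intron.

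Of the WT exonic windows, 3 lay at the start of the message. The coding window just downstream of the start codon window, at 156115019 to 156115103, was in all 3 lists. Its passing replicates had 1.51 and 3.41 with R62W, 1.35 and 1.45 with R101H, and 2.51 and 4.32 with WT. Both R101H values lay below both WT values, while those of R62W overlapped with WT. IP counts were 52 with R62W, 51 with R101H and 97 with WT, summed over the 2 passing replicates in each list. The start codon window itself, at 156114919 to 156115018, was listed in WT alone, with 2.40 and 3.35 and 116 IP reads. So was the 5′ UTR window before it, at 156114849 to 156114918, with 1.86 and 1.96.

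Toward the 3′ end exonic windows were few, and not every group had a value in each. A coding window at 156136362 to 156136436 had 2.02 and 3.10 with R62W and 2.18 and 3.03 with R101H, and was not listed in WT. It held 37 IP reads with R62W and 42 with R101H, each summed over 2 passing replicates. A 3′ UTR window at 156139692 to 156139788 was in all 3 lists, with 1.45 and 1.95 with R62W, 1.49 and 2.55 with R101H, and 1.97 and 2.40 with WT. Its IP counts were 24 with R62W, 38 with R101H and 32 with WT, summed over the 2 passing replicates in each list. The replicates of R101H overlapped with those of WT there, and both R62W replicates lay below those of WT. A second 3′ UTR window, at 156139497 to 156139593, was listed in WT alone, with replicates as far apart as 1.39 and 5.03.

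For R101H, 3 windows were shared with WT, and the difference R101H minus WT was -2.43 in the intron window, -2.01 in the coding window near the start codon and -0.17 in the 3′ UTR window. All 3 were lower with R101H, against 17.5% of the 11082 windows shared by these lists. In 1 of the 3 the replicates did not overlap, against 3.84% of all shared windows. Of the 93331 windows in the R101H list, 64.2% were also listed with R62W. All 4 R101H windows of LMNA were among them, too few to set the gene apart from that share. There the difference R101H minus R62W was -1.09 in the intron window, -1.06 in the coding window near the start codon, 0.04 in the other coding window and 0.32 in the 3′ UTR window. Only in the coding window near the start codon did the replicates not overlap, with both R101H values below both R62W values. The comparisons with WT share the WT samples, and the inputs behind each list were not told apart here.

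Set against the other genes, LMNA stood high in the WT list. It ranked 568th of 7780 genes by number of windows with R62W, 4677th of 8133 with R101H and 4th of 3307 with WT. Its windows held 0.0101% of the listed IP reads with R62W, 0.00201% with R101H and 0.210% with WT. These shares shrink as a list grows. Of the 3307 genes with a WT window, 2.87% had fewer windows with R62W than with WT and 5.17% had fewer with R101H, so most genes ran in the other direction.

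The genes most like LMNA also had WT windows that were mainly intronic. Likeness was the distance between genes in 2 log2 ratios of window counts, R62W over WT and R101H over WT, over the 3 lists and among the 133 genes with at least 20 WT windows. LMNA had -1.68 and -4.45, where the medians over the 133 genes were 0.74 and 0.70. Its R101H ratio was the lowest of the 133 and its R62W ratio the fifth lowest. The nearest gene, at a distance of 2.13 where the median gene was at 5.74, was EPHA2, an ephrin receptor gene. It had 11 windows with R62W, 10 with R101H and 57 with WT, of which 3, 0 and 52 were intronic.

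Next came ATP6V0D1, a subunit gene of the vacuolar proton pump, with 10 windows with R62W, 10 with R101H and 43 with WT, of which 2, 1 and 36 were intronic. MIR34AHG, the host gene of miR-34a, had 34, 36 and 131 windows, of which 17, 19 and 120 were intronic. JUP, which encodes the junction protein plakoglobin, had 4, 7 and 26, of which 2, 1 and 25 were intronic. HDAC5, a histone deacetylase gene, had 39, 29 and 84, of which 19, 7 and 82 were intronic. Each of the 5 had more R101H windows than LMNA. These are 3 counts per gene, and the likeness says nothing of shared function or control.

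Most genes beside LMNA on the chromosome had more windows with the substitutions, as did most genes of the lists. Within 250 kb of the LMNA windows, 11 annotated genes or gene pairs had a listed window, and 10 of them had more with R62W and 10 had more with R101H than with WT. Over all 8697 genes with a listed window these shares were 86.7% and 90.9%, so the count of neighbours is near the background. In all they had 170 windows with R62W, 179 with R101H and 32 with WT, of which 15, 9 and 1 were intronic. KHDC4, a gene of a KH domain protein, had 48, 45 and 17. SMG5, which acts in nonsense-mediated decay, had 40, 41 and 3. CCT3, a chaperonin subunit gene, had 22, 20 and 5, and the ubiquilin gene UBQLN4 had 21, 24 and 0. SLC25A44, a mitochondrial carrier gene, had 16, 21 and 2, and the overlapping pair of PMF1 and PMF1-BGLAP had 7, 9 and 2. GLMP, of a lysosomal membrane protein, had 7, 8 and 1, and SSR2, of a signal sequence receptor subunit, had 6, 6 and 1. The GTPase gene RIT1 had 1, 3 and 0, and LAMTOR2, of the Ragulator complex, had 1, 2 and 0. The exception was ARHGEF2, with 1, 0 and 1.

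A list of 27 genes held the other lamins, their partners at the nuclear envelope, the enzymes that process prelamin A, and LPCAT1, NARF, SREBF1, RB1 and PRKDC. Of these, 23 were listed with R62W, 24 with R101H and 15 with WT, with 521, 584 and 72 windows. Of the 15 genes with a WT window, none had fewer windows with R62W or R101H than with WT. The others of the 27 had no WT window and could not have fewer. Among all genes with a WT window only 2.87% had fewer with R62W and 5.17% with R101H, so a count of 0 is near the background and says nothing particular of the list. Of the windows of the 27 genes, 46 with R62W, 59 with R101H and 6 with WT were intronic. The 6 in WT were all of LMNB2, the gene of lamin B2. The intronic windows of LMNB2 were 6 with R62W, 0 with R101H and 6 with WT. In all, LMNB2 had 33 windows with R62W, 30 with R101H and 9 with WT, with median log2 odds ratios of 1.30, 1.38 and 2.42. LMNB1, the gene of lamin B1, had 15, 11 and 4, with medians of 1.47, 1.48 and 1.19.

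Among membrane partners, SYNE2, which encodes the giant nesprin-2, had 131 windows with R62W, 144 with R101H and 10 with WT, and SUN1, which anchors nesprins, had 55, 57 and 7. LBR, the lamin B receptor, had 28, 23 and 6, ANKLE2 had 27, 27 and 2, LEMD3 had 13, 23 and 1, and EMD, the gene of emerin, had 12, 13 and 3. Outside the nuclear envelope, PRKDC, the catalytic subunit of DNA-dependent protein kinase, had 102, 121 and 17, and the acyltransferase gene LPCAT1 had 31, 41 and 4. ZMPSTE24, the protease that matures lamin A, had 0, 2 and 0. SYNE1 and SYNE3 were in no list.

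**Figure D3:**
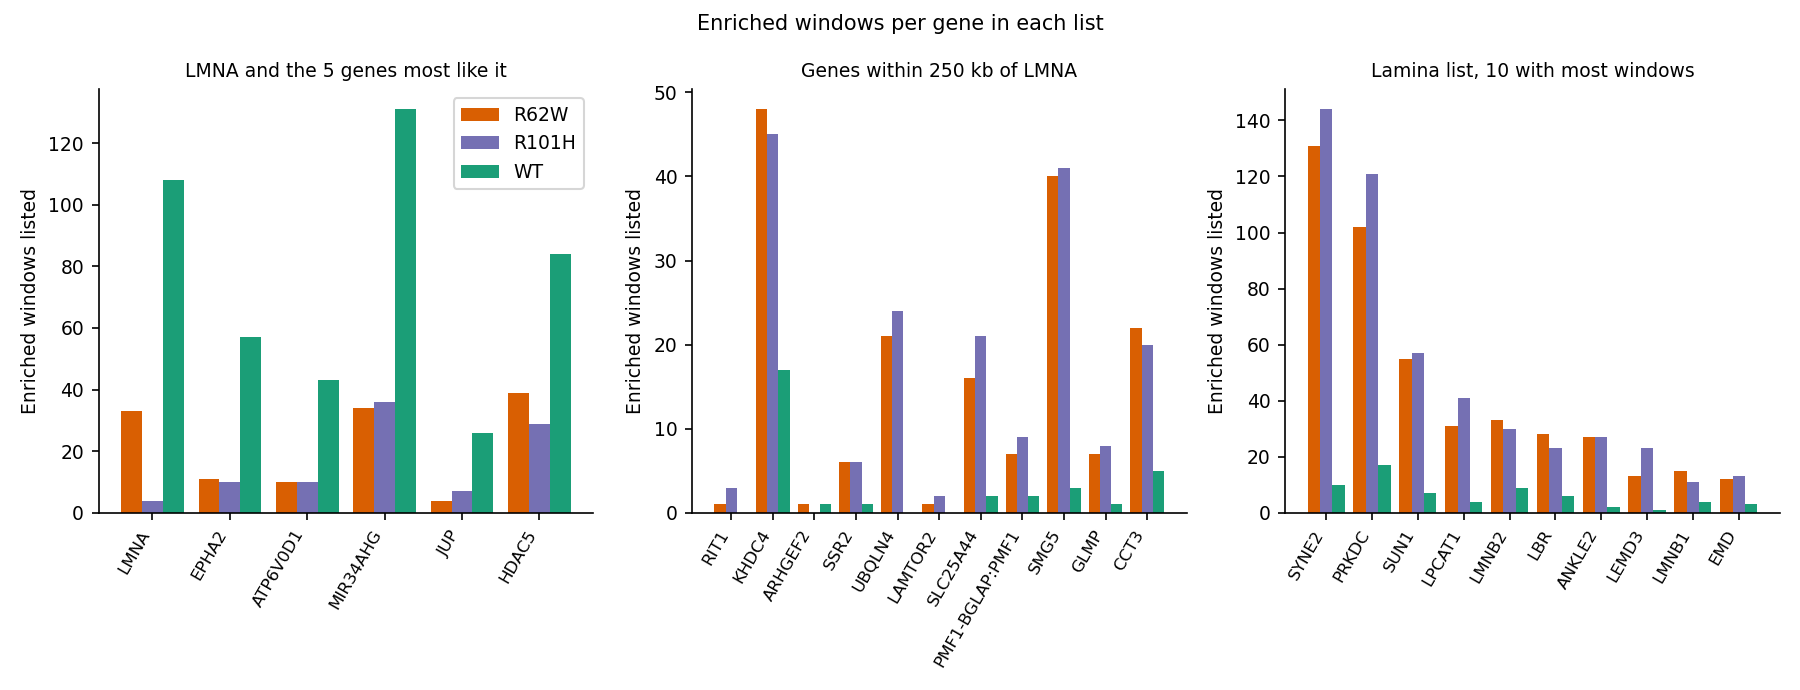
Number of enriched windows listed per gene with R62W, R101H and WT, for LMNA and the 5 genes most like it, for genes within 250 kb of it, and for the 10 members of the lamina list with most windows. WT has the tallest of the 3 bars for each gene of the first panel, with 108 windows for LMNA and 131 for MIR34AHG, and the shortest for each gene of the lamina panel.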

How the data were processed

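RNA from V5-tagged RPS19 immunoprecipitates and size-matched inputs of HEK293T cells was sequenced. Reads were handled with fastp and STAR on GRCh38, per the submitters' processing notes, with versions and window caller not given in the sources used here. Each IP group had 1 deposited table of enriched windows covering all its replicates, per the labels' design text. IP and input counts, per the file headers, are read sums per window over replicates, whole numbers in the deposited tables. By the values, only the passing replicates of a window are summed. Enrichment was deposited as a log2 odds ratio (IP to input) in 3 columns, for the lowest, the mean and the highest of the passing replicates. Each p-value and q-value came from the authors' own enrichment test. From the values, listed windows had a highest q under 0.2 in at least 2 replicates. The G and C content was deposited as a fraction and turned into a percent. Another deposited column, the number of passing replicates, was used as a filter. The repeat element tables were not used.

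Rows whose gene name holds LMNA were taken with Python 3.11.15 and pandas 2.3.3. Coordinates were written 1-based. Windows beside splice sites counted as intronic, and windows were shared at identical coordinates. With 3 passing replicates the middle value follows from the lowest, mean and highest. Exact Clopper-Pearson 95% intervals (SciPy 1.17.1) cover counting error only. Windows named are the 10 highest in WT, all those of R101H and the 5 highest exonic ones per list. The 5 genes most like LMNA, the 10 lamina genes with most windows and all genes within 250 kb were also named, with ZMPSTE24, SYNE1 and SYNE3 added after their values were seen. A count of 1 was added before ratios of window counts. Scripts were tested on simulated data. The depth per library is unknown, since the tables give no library totals. The members and gene lists were chosen with earlier results of these data known. No test was run between groups. No sequence of the windows was read, since no genome was used here.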

Additional observations from a re-analysis of the deposited data

How the results depend on the processing

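Over 13 summary values of LMNA and 54 alternative settings, 37 stayed within the replicate or counting error of the value or within 1.5 times of a count, 17 moved further and 0 changed direction. Only the differences R62W minus WT and R101H minus WT could change direction. Counts, shares and medians of windows already listed as enriched could not. With a highest q of at most 0.05, LMNA had 8 windows with R62W, 0 with R101H and 49 with WT, and the intronic share of R62W was 100%. With windows enriched in every replicate it had 4 windows with R62W and 62 with WT, and the intronic shares of both were 100%. Of these 62 WT windows, 35.5% were in the full R62W list, to which this filter was not applied. With lists of equal length, taken by lowest q, R62W had 3 LMNA windows and R101H had 0, against 108 with WT, and 0.926% and 0% of the WT windows were shared with R62W and R101H. This setting takes the R62W list down to a q of 0.0303 and that of R101H to 0.00347, while the WT list keeps q up to 0.200, so it is stricter for the substitutions. Without splice site windows the intronic share of WT was 85.2%. With the lowest replicate in place of the mean, the median log2 odds ratio was 2.49 with R62W and 3.05 with WT, and the median R101H minus WT difference over 3 shared windows was -1.16.

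No paired analysis was possible because the counts are pooled and the replicate values carry no replicate number. For the same reason leaving out each replicate was not run. Input counts of 0 to 5 in the intron limit how well any single ratio is known.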
